A study of Arabidopsis thaliana with 8 samples.

Results

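Change with age in the wild-type shoot apex of Arabidopsis thaliana, at 16 days against 10 days, was described across all loci with at least 1 RPKM (read counts scaled by transcript length and by library size) in at least 2 of the 8 libraries of the series. This rule kept 17467 of 27655 loci. The comparison set 2 libraries of wild-type apices aged 16 days against 2 libraries aged 10 days, 4 of the 8 libraries. The other 4, also 2 at day 16 and 2 at day 10, came from the line pFD::amiR-PECT1, in which the promoter of the apex bZIP gene FD drives an artificial microRNA against PECT1, and served as a second age series. The labels do not tell whether that line is 1 transformant. Plants of both genotypes grew on plates of 1/2 MS medium in short days at 23 °C, and apices were taken at ZT 8, which is 8 hours after lights on. Separate plantings for the 2 libraries of a group are not stated, so each p-value measures the spread between these libraries, part of which may be technical, and no harvest or sequencing batch is given.

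The shoot apex holds the stem cells that form leaves and later flowers, together with the youngest leaves. In Arabidopsis the microRNA miR156 is abundant in young shoots and declines with age, which relieves SPL transcription factors that promote adult leaves and flowering. MADS-box factors such as SOC1 and AGL24 promote flowering at the apex, the MADS-box factors SVP and FLC repress it, and the florigen FT, made in leaves, is little expressed in short days.

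Estimated depth was 17.20 to 17.74 M reads in the 4 wild-type libraries and 15.46 to 18.16 M reads over all 8. Between 16273 and 16883 loci reached 1 RPKM in a wild-type library. The 2 libraries of each age correlated across genes at Pearson r = 0.978 and were not copies of one another. On estimated reads, chi-square over its degrees of freedom was 25.4 for the day 16 pair and 22.9 for the day 10 pair. Sampling alone gives about 1. One knockdown library of day 16, replicate 1, stood apart, since 85.4% of its estimated reads were nuclear, against 93.1% to 95.7% in the other 7. Shoot identity was visible in the markers. STM, the homeobox gene of the shoot meristem, was measured at 12.3 and 12.6 RPKM at day 16, against 6.42 and 6.31 RPKM at day 10. The meristem genes WUS and CLV3 were at most 0.56 RPKM in the wild-type libraries. Of 20 shoot meristem and boundary genes, 5 stayed under 1 RPKM in all wild-type libraries. Of 12 root marker genes, 10 stayed under 1 RPKM in all wild-type libraries and 4 were listed at 0 throughout, which leaves PYK10, described with the genes that fell, and PIP2;4.

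At an adjusted p under 0.05 (limma, two-sided, Benjamini-Hochberg over all 17467 genes), 39 genes changed between day 16 and day 10, or 0.223% of those tested. Of these, 34 rose (0.195%) and 5 fell (0.0286%). The genes that rose had log2 fold changes of 1.01 to 3.52, and those that fell had log2 fold changes of -0.92 to -1.55. The risen genes included the extensin EXT4, the flowering regulator AGL24, ethylene response factors, 4 peroxidases, metallothioneins and the amino acid permease AAP2. The fallen genes included the xyloglucan enzyme XTH7, the ER-body glucosidase PYK10 and the Rubisco subunit gene RBCS1B. Without adjustment, 1303 genes had p under 0.05, 970 higher and 333 lower at day 16.

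The count of 39 rested on both wild-type pairs. It was 16 without day 16 replicate 1, 7 without day 16 replicate 2, 13 without day 10 replicate 1 and 10 without day 10 replicate 2. Leaving out a knockdown library, which enters only through the shared estimate of the spread, gave 28 without day 16 replicate 1 and 54 without day 10 replicate 2, with 30 and 32 for the other two. After median-of-ratios scaling 18 genes passed, all among the 39. EXT4, DR4, AGL24, AAP2 and XTH7 passed in all 18 alternative settings, 23 of the 39 passed in 9 or more of them, and none of the 39 reversed its sign in any.

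The values as deposited carried a small shift between the ages. The median log2 fold change over all tested genes was 0.10, against 0.01 after median-of-ratios scaling and -0.01 after quantile normalization. As deposited, 66.3% of genes had a log2 fold change above 0. The share of higher genes among those with an unadjusted p under 0.05 was 74.4% as deposited and 54.5% after scaling, with 720 higher and 600 lower. Among the genes that passed, the share was 87.2% as deposited and 83.3% after scaling. Both day 16 libraries lay above both day 10 libraries for 32.0% of all tested genes and below them for 10.6%. After scaling these shares were 20.3% and 19.7%. The list counts of libraries that did not overlap use the values as deposited, so they are read against 32.0% and 10.6%. Counts of log2 fold changes above or below 0 are read against 66.3% and 33.6%, unless given after scaling. In the knockdown line the all-gene median log2 fold change was -0.01 as deposited.

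**Figure D1:**
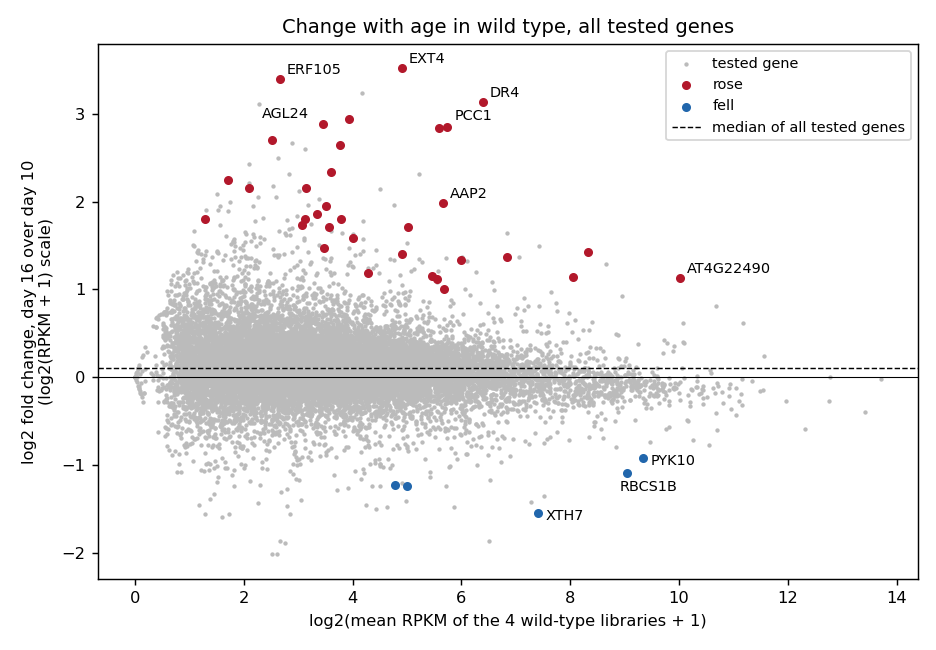
Each point is 1 of the 17467 tested genes, with its mean level in the 4 wild-type libraries on the x axis and its log2 fold change, day 16 over day 10, on the y axis, both on the log2(RPKM + 1) scale. The 34 genes that rose (red) and the 5 that fell (blue) span levels between NAP, at 3.42 RPKM or less, and AT4G22490, at over 646 RPKM in every wild-type library, and the dashed line is the median of 0.10.

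On the log2(RPKM + 1) scale, cell wall genes had the largest rise and the largest fall among the genes that passed. With a pseudocount of 0.1 the AT5G51190 log2 fold change (ERF105, a transcription factor gene) was larger, at 5.98, than the EXT4 log2 fold change of 3.81. EXT4, a hydroxyproline-rich structural protein of the wall, was measured at 66.5 and 41.8 RPKM at day 16, against 3.1 and 4.36 RPKM at day 10. Both day 16 libraries lay far above both day 10 libraries, a 14.5-fold difference of the means. The log2 fold change was 3.52 ± 0.256 (SE, adjusted p = 6.9e-04). A second proline-rich extensin-like gene, AT2G43150, was measured at 54.9 and 42.8 RPKM at day 16, against 13.6 and 14.6 RPKM at day 10 (log2 fold change 1.71 ± 0.274, adjusted p = 0.0470). XTH7, which encodes an enzyme that cuts and rejoins xyloglucan chains, fell to 89.9 and 82.1 RPKM at day 16, against 246.3 and 260.9 RPKM at day 10. The groups did not overlap, and the day 16 mean was 33.9% of the day 10 mean (log2 fold change -1.55 ± 0.144, adjusted p = 0.00239).

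Of 23 tested expansins, xyloglucan enzymes and extensins, EXT4 rose, XTH7 fell and the other 21 did not pass. Of all tested genes 0.195% rose and 0.0286% fell. The list had 12 log2 fold changes above 0 and 11 below 0, with a median of 0.02 that turned to -0.09 after median-of-ratios scaling and -0.05 after quantile normalization. XTH16, another xyloglucan enzyme, was measured at 79.2 and 37.1 RPKM at day 16, against 123.7 and 122.6 RPKM at day 10 (log2 fold change -1.17 ± 0.382, adjusted p = 0.500). Its 2 day 16 libraries differed more from each other than the 2 of day 10 did.

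Class III peroxidases, secreted haem enzymes that act on wall phenolics and hydrogen peroxide, rose at 4 loci. This grouping was made after the values were seen and was not tested as one. The tested members of the family were not counted, so the 4 have no family share beside them. Of all tested genes 0.195% rose. AT2G37130 was measured at 16.2 and 22.4 RPKM at day 16, against 3.12 and 2.86 RPKM at day 10 (log2 fold change 2.33 ± 0.270, adjusted p = 0.0107). AT4G37520, AT5G58390 and AT5G64110 had log2 fold changes of 1.95, 1.71 and 1.34. In all 4 both day 16 libraries lay above both day 10 libraries. AT4G37520 passed in 5 of 18 alternatives and the other 3 in 10 or 11. AT5G64110 was the most abundant of them per length, at 92.6 and 87.3 RPKM at day 16, against 32.6 and 37.4 RPKM at day 10.

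Among regulators of flowering, AGL24 rose. This MADS-box factor promotes flowering and acts together with SOC1 at the apex. AGL24 was measured at 18.6 and 18.1 RPKM at day 16, against 1.85 and 1.41 RPKM at day 10. The means differed 11.3-fold and the libraries within an age by less than 0.5 RPKM, with a log2 fold change of 2.89 ± 0.214 (adjusted p = 6.9e-04). In the knockdown line AGL24 was measured at 14.7 and 15.2 RPKM at day 16, against 1.58 and 1.1 RPKM at day 10.

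The partner SOC1 was measured at 8.92 and 9.55 RPKM at day 16, against 3.99 and 4.90 RPKM at day 10. Its libraries did not overlap between the ages, but it did not pass (log2 fold change 0.91 ± 0.2495, adjusted p = 0.358). FT and its relative TSF were listed at 0 in every wild-type library. LFY, which sets floral identity, was measured at 0.45 and 0.30 RPKM at day 16, against 0.67 and 0.49 RPKM at day 10, and AP1, which acts with LFY in young flowers, was listed at 0. FUL had 0.48 and 0.89 RPKM at day 16, against 0.13 and 0.78 RPKM at day 10, and was too low to test. FD, the partner of FT, had 2.38 and 1.74 RPKM at day 16, against 1.73 and 2.23 RPKM at day 10, so its groups overlapped. Of 15 flowering promoters with values, 6 were tested, and AGL24 alone passed, against 0.223% of all tested genes.

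The repressors did not pass. SVP, a MADS-box repressor of flowering, was measured at 43.1 and 54.1 RPKM at day 16, against 34.1 and 32.0 RPKM at day 10 (log2 fold change 0.54 ± 0.205, adjusted p = 0.583). FLC, the repressor silenced by cold, was measured at 10.8 and 9.02 RPKM at day 16, against 8.28 and 5.06 RPKM at day 10 (0.54 ± 0.242 on the log2 scale, adjusted p = 0.665). For both, the day 16 libraries lay above those of day 10. Of 6 tested MADS-box repressors 5 had a log2 fold change above 0 (4 after scaling), and of 8 AP2-like and TEM repressors 3 did. The share over all tested genes was 66.3% as deposited. SEP3, a floral organ factor, was among the lower genes at 0.75 and 0.37 RPKM at day 16, against 3.37 and 2.48 RPKM at day 10, and did not pass (log2 fold change -1.33 ± 0.258, adjusted p = 0.119).

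The SPL factors that miR156 cuts or represses are the textbook readout of shoot age. The mature microRNA and 2 of its sites are shown because the SPL genes are defined by them. In miR156a, at chr2:10676534-10676553 on the minus strand, the seed (bases 2 to 8 from the 5′ end) is in capitals. In the sites of SPL3, at chr2:14305878-14305897 on the plus strand, and SPL9, at chr2:17589066-17589085 on the plus strand, capitals mark bases that differ from the perfect complement of miR156a. The sequences are from RefSeq, assembly TAIR10.1.

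miR156a: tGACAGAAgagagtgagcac
SPL3 site: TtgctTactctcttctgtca
SPL9 site: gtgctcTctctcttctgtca

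Of 10 annotated mature miR156 sequences read, 6 were identical to miR156a. Among the others, the entries for miR156i and miR156j lie on the minus strand at the exact coordinates of the SPL4 and SPL9 sites. The site of SPL3 lies in its 3′ UTR and has 2 mismatches, and that of SPL9 lies in a coding exon and has 1. The same 20 letters as in SPL9 stand in SPL13B. The microRNA genes themselves were not analysed here.

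SPL3 was measured at 13.9 and 26.8 RPKM at day 16, against 5.42 and 5.57 RPKM at day 10. Both day 16 libraries lay above both day 10 libraries, yet they differed more from each other than the lower of them did from day 10. SPL3 did not pass (log2 fold change 1.65 ± 0.295, adjusted p = 0.0881), though it did in 2 of the 18 alternatives. SPL9 was measured at 3.35 and 4.18 RPKM at day 16, against 2.96 and 3.92 RPKM at day 10, and its groups overlapped. SPL4 overlapped too, at 1.49 and 2.43 RPKM at day 16, against 1.86 and 1.44 RPKM at day 10. SPL13B, at 8.71 and 11.5 RPKM at day 16, against 5.14 and 7.75 RPKM at day 10, shares 92.8% of its aligned exon bases with SPL13A, so reads may be split between those copies. SPL5 and SPL15 stayed under 1 RPKM in all wild-type libraries.

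Of 8 tested SPL factors with a miR156 site none passed. Of these, 6 had a log2 fold change above 0, against 66.3% of all tested genes. In 3 both day 16 libraries lay above both of day 10, against 32.0% of all tested genes. The SPL median log2 fold change was 0.37 in wild type (0.10 over all tested genes) and 0.00 in the knockdown line (-0.01 over all tested genes). The knockdown value includes day 16 replicate 1, the library with the lower nuclear share. After median-of-ratios scaling the wild-type median was 0.28, and after quantile normalization 0.20, and as deposited it was 0.20 without day 16 replicate 2. In the 5 SPL factors without a miR156 site the wild-type median was 0.21, or 0.12 after scaling, and ran between 0.09 without day 10 replicate 1 and 0.32 without day 16 replicate 2.

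Members of the ERF family and a regulator of ethylene signalling were among the genes that rose, a grouping made after the values were seen. ERF105 (AT5G51190), a transcription factor of the ERF family, was measured at 12.2 and 8.92 RPKM at day 16, against listed values of 0.00 and 0.18 RPKM at day 10 (log2 fold change 3.40 ± 0.304, adjusted p = 0.00219). The gene overlaps AT5G51180 on the opposite strand by 965 bases, and the strand treatment of the counting is not known here. AT5G51180 was measured at 13.6 and 15.1 RPKM at day 16, against 9.97 and 9.56 RPKM at day 10. ERF5, a related factor, was measured at 12.8 and 13.9 RPKM at day 16, against 2.62 and 1.86 RPKM at day 10 (log2 fold change 2.16 ± 0.255, adjusted p = 0.0109). EBP, another ERF family factor, had 53.8 and 66.0 RPKM at day 16, against 27.8 and 24.9 RPKM at day 10 (log2 fold change 1.15). EBF2, the F-box protein that directs destruction of the ethylene factor EIN3, had 61.8 and 73.7 RPKM at day 16, against 32.8 and 33.3 RPKM at day 10 (log2 fold change 1.01, adjusted p = 0.0465). In each of these genes both day 16 libraries were above both day 10 libraries. PR4, a chitin-binding defence protein, had 5.71 and 12.2 RPKM at day 16, against 0.82 and 0.15 RPKM at day 10 (log2 fold change 2.70 ± 0.394, adjusted p = 0.0340). EBF2 passed in 5 of 18 alternatives and PR4 in 5 of 17, fewer than ERF5 with 12 of 18 and ERF105 with 17 of 18.

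ERF5 and ERF105 also stand on a list of genes of touch and rapid stress responses. Of its 20 tested members these 2 rose and none fell, against 0.195% and 0.0286% of all tested genes. In 15 both day 16 libraries lay above both of day 10, against 32.0% of all tested genes. The median log2 fold change of the list was 0.97, or 0.89 after median-of-ratios scaling and 0.81 after quantile normalization. STZ, a zinc-finger repressor of stress responses, was measured at 15.9 and 11.03 RPKM at day 16, against 2.57 and 2.72 RPKM at day 10, and did not pass (log2 fold change 1.97 ± 0.382, adjusted p = 0.119). WRKY40, a WRKY factor of defence, had 7.52 and 14.3 RPKM at day 16, against 0.96 and 1.66 RPKM at day 10 (log2 fold change 2.32, adjusted p = 0.574). The touch genes TCH2 and TCH4 overlapped between the ages and had log2 fold changes of -0.03 and -0.56. In the knockdown line the median of the list was 0.46.

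Of 12 tested genes of salicylic acid defence, PCC1 and PR5 rose and none fell, against 0.195% and 0.0286% of all tested genes. Of the 12, 11 had a log2 fold change above 0 (10 after scaling), against 66.3% of all tested genes as deposited. In 6 both day 16 libraries lay above both of day 10, against 32.0% of all tested genes. PR5, a thaumatin-like antifungal protein, was measured at 15.2 and 15.6 RPKM at day 16, against 4.86 and 4.94 RPKM at day 10 (log2 fold change 1.47 ± 0.234, adjusted p = 0.0465). It passed in 6 of 18 alternatives. PR1, the classic marker of this defence, was listed at 0 in all 4 libraries, and PR2 reached 0.12 RPKM at most. WRKY70, a WRKY factor of this defence, was measured at 14.9 and 13.3 RPKM at day 16, against 2.56 and 10.6 RPKM at day 10, with the day 10 libraries far apart (adjusted p = 0.562). The median log2 fold change of the list was 0.58, or 0.49 after scaling, and it was 0.36 without day 10 replicate 1.

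PCC1 and its neighbour AT3G22235 encode small proteins of the cysteine-rich transmembrane module type and rose together. PCC1, known for control by pathogens and by the clock, was measured at 88.4 and 96.6 RPKM at day 16, against 8.90 and 15.9 RPKM at day 10 (log2 fold change 2.85 ± 0.329, adjusted p = 0.0107). AT3G22235 was measured at 80.9 and 86.4 RPKM at day 16, against 10.4 and 11.3 RPKM at day 10 (log2 fold change 2.84 ± 0.374, adjusted p = 0.0237). Both genes were several-fold higher in each day 16 library than in either day 10 library. PCC1 passed in 12 of 18 alternatives and AT3G22235 in 9. The genes lie on the minus strand of chromosome 3, at 7845823 to 7846833 and 7854419 to 7855814, with no other locus of the table between them. Their exons share 77.2% of aligned bases and an identical run of 247 bases, so reads may be split between them and the 2 values are not separate evidence.

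The 300 bases before each annotated start are shown because these 2 genes moved together and share promoter sequence. The windows are chr3:7846834-7847133 for PCC1 and chr3:7855815-7856114 for AT3G22235, both on the minus strand of RefSeq assembly TAIR10.1 and written 5′ to 3′ along the gene. Capitals mark the letters ACGTG, the core of the abscisic acid response element and of G-boxes.

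PCC1 promoter: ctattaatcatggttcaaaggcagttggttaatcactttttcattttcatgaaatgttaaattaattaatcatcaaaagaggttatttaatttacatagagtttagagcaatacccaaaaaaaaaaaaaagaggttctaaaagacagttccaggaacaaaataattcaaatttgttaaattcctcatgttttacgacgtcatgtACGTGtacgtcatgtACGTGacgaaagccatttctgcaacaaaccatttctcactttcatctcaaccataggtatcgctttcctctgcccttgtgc
AT3G22235 promoter: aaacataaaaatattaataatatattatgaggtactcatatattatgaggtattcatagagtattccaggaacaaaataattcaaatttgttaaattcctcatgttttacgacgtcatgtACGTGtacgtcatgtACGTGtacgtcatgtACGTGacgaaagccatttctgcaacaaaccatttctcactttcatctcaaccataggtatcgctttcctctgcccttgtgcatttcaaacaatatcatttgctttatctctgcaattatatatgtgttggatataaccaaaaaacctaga

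The core stands in 2 copies before PCC1 and in 3 before AT3G22235, with starts 15 bases apart. Identical runs of 48 and 105 bases contain or flank these copies. Searched on both strands in windows of 300 bases, ACGTG was present before 25.6% of 17343 tested genes and before 10 of the 34 that rose (29.4%). TTGAC, the W-box core, was present before 49.2% of all tested genes and before 13 of the 34 (38.2%). GCCGCC, the box bound by ERF factors, was present before 2.4% of all tested genes and none of the 34. These matches describe letters in the window only.

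**Figure D2:**
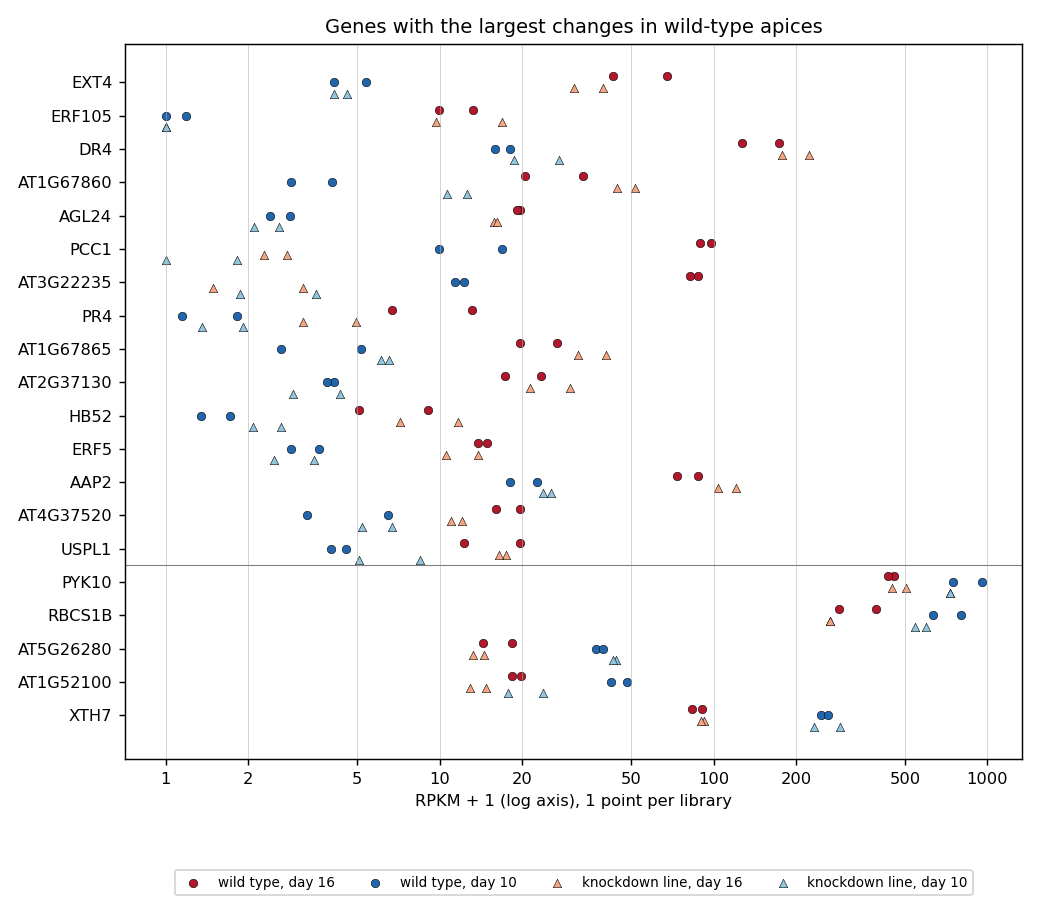
RPKM + 1 on a log axis, 1 point per library, for the 15 top-ranked risen genes and the 5 that fell, in wild type at day 16 (red circles) and day 10 (blue circles) and in the knockdown line at day 16 (orange triangles) and day 10 (light blue triangles). In wild type both day 16 points lie right of both day 10 points in the upper 15 genes and left of them in the lower 5, and for PCC1 and AT3G22235 all 4 knockdown points lie under 3 RPKM.

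The risen genes also included AAP2, AT3G25190 and MT3, set side by side here after their values were seen. AAP2, an amino acid permease of the phloem, was measured at 86.4 and 72.6 RPKM at day 16, against 21.7 and 17.1 RPKM at day 10 (log2 fold change 1.98 ± 0.176, adjusted p = 0.00219). AT3G25190, of the vacuolar iron transporter family, had 19.4 and 21.3 RPKM at day 16, against 5.90 and 4.42 RPKM at day 10 (log2 fold change 1.80). The small cysteine-rich metallothionein MT3 was measured at 384.5 and 543.3 RPKM at day 16, against 206.0 and 138.8 RPKM at day 10 (log2 fold change 1.43 ± 0.206, adjusted p = 0.0334). Groups did not overlap in any of the 3.

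MT1C, a second metallothionein, had 25.4 and 26.9 RPKM at day 16, against 10.6 and 11.1 RPKM at day 10 (log2 fold change 1.19). Its neighbour AT1G07590, annotated as a repeat protein, had 162.6 and 166.2 RPKM at day 16, against 63.2 and 63.3 RPKM at day 10 (log2 fold change 1.36). The metallothionein gene MT1A lies wholly within AT1G07590 on the same strand (chr1:2338904-2339321) and was listed at 0 in all 8 libraries. Reads of AT1G07590 and of MT1A therefore cannot be told apart in this table.

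DR4, a protease-inhibitor-like protein named for its loss in drought, was measured at 125.9 and 173.1 RPKM at day 16, against 17.04 and 14.92 RPKM at day 10 (log2 fold change 3.13 ± 0.226, adjusted p = 6.9e-04). The adjoining uncharacterized genes AT1G67860 and AT1G67865, 636 bases apart on chromosome 1, had log2 fold changes of 2.94 and 2.64. AT1G67860 had 19.5 and 32.3 RPKM at day 16, against 3.05 and 1.86 RPKM at day 10. HB52, a homeodomain leucine-zipper factor, had 4.06 and 8.04 RPKM at day 16, against 0.71 and 0.34 RPKM at day 10 (log2 fold change 2.16, adjusted p = 0.0470), and passed in 3 of 17 alternatives. USPL1, a BURP-domain protein, had 18.7 and 11.2 RPKM at day 16, against 3.56 and 3.02 RPKM at day 10 (log2 fold change 1.86), and passed in 4 of 18 alternatives.

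NAP, a NAC factor that drives leaf senescence, was measured at 3.42 and 2.14 RPKM at day 16, against listed values of 0.14 and 0.00 RPKM at day 10 (log2 fold change 1.80 ± 0.286, adjusted p = 0.0465). It was the 1 member of 11 tested senescence genes that rose, against 0.195% of all tested genes, and it passed in 5 of 17 alternatives. All 11 had a log2 fold change above 0, against 66.3% of all tested genes, with a list median of 0.42, or 0.31 after scaling. SAG12, the protease gene that marks advanced leaf senescence, had a listed value of 0 in each wild-type library. LSH10, of the ALOG family of shoot regulators, had 23.8 and 22.2 RPKM at day 16, against 6.60 and 7.39 RPKM at day 10 (log2 fold change 1.59 ± 0.177, adjusted p = 0.00979).

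Lipid-transfer-type proteins rose at 3 loci outside the list of named LTP genes. The tested loci of this type were not counted, and 0.195% of all tested genes rose. AT4G22490 was measured at 1299.8 and 1543 RPKM at day 16, against 646.6 and 646.1 RPKM at day 10 (log2 fold change 1.13 ± 0.144, adjusted p = 0.0196). AT4G22517, in the same cluster on chromosome 4, had 325.1 and 400.6 RPKM at day 16, against 154.8 and 171.6 RPKM at day 10 (log2 fold change 1.14). AT5G01870, on chromosome 5, had 60.7 and 65.7 RPKM at day 16, against 27.1 and 30.2 RPKM at day 10 (log2 fold change 1.11). The means differed 2.199-fold to 2.224-fold, with no overlap between the ages. The 2 other abundant cluster genes, AT4G22505 and AT4G22513, had log2 fold changes of 0.93 and 0.81 and did not pass, and several of these loci overlap genes on the opposite strand. The named list differed in sign. Of its 10 tested members none passed and 7 had a log2 fold change below 0, with LTPG2, a GPI-anchored exporter of cuticle lipids, at 51.4 and 42.6 RPKM at day 16, against 87.6 and 86.5 RPKM at day 10 (adjusted p = 0.0716).

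Further genes rose that the rule on size or list does not name, and they are given here after their values were seen. AT2G30670, an oxidoreductase-fold gene, had a log2 fold change of 2.25, scpl31, a serine carboxypeptidase-like gene, 1.80, and AT2G32870, a TRAF-like gene, 1.73. AT2G25510, uncharacterized, had 34.6 and 50.4 RPKM at day 16, against 16.5 and 14 RPKM at day 10 (log2 fold change 1.40). AT2G25510 passed in 4 of 18 alternatives and scpl31 in 5 of 18. The rule also does not name other risen genes of smaller change given above, such as the metallothioneins, LSH10, EBP and EBF2. They too were picked after their values were seen. LSH10 passed in 13 of 18 alternatives, MT3 and MT1C in 9 each, and EBP in 8.

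Besides XTH7, 4 genes fell. PYK10, the beta-glucosidase of the ER bodies, had 456.2 and 434.2 RPKM at day 16, against 745.9 and 951.8 RPKM at day 10 (log2 fold change -0.92 ± 0.138, adjusted p = 0.0389). It is a marker of roots and seedling epidermis, and the other 11 root markers summed to 3.13 and 2.32 RPKM at day 16, against 2.56 and 2.98 RPKM at day 10. AT1G52100, a mannose-binding lectin, had 18.8 and 17 RPKM at day 16, against 41.2 and 47.1 RPKM at day 10 (log2 fold change -1.24). AT5G26280, a TRAF-like protein, had 13.4 and 17.43 RPKM at day 16, against 36.3 and 38.5 RPKM at day 10 (log2 fold change -1.23). The day 16 means of these 3 were 41.0% to 52.45% of the day 10 means, without overlap. PYK10 and RBCS1B passed in 5 of 18 alternatives each.

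RBCS1B, 1 of the small-subunit genes of Rubisco, had 392.2 and 286.1 RPKM at day 16, against 634.3 and 803.0 RPKM at day 10 (log2 fold change -1.09 ± 0.171, adjusted p = 0.0465). The family is made of near-identical copies, so its reads may be split between them. RBCS1A had 9744 and 9083 RPKM at day 16, against 12710.0 and 12141 RPKM at day 10, and did not pass (log2 fold change -0.40, adjusted p = 0.341). RBCS2B and RBCS3B, with log2 fold changes of -0.77 and -0.59, did not pass either, and in all 4 both day 16 libraries lay below both day 10 libraries. Of 20 leaf mesophyll markers RBCS1B fell, against 0.0286% of all tested genes. Of these markers 19 had a log2 fold change below 0, against 33.6% of all tested genes. In 11 both day 16 libraries lay below both of day 10, against 10.6% of all tested genes. Their median was -0.31, or -0.42 after median-of-ratios scaling and -0.17 after quantile normalization, and it was -0.47 without day 16 replicate 1 and -0.06 without day 16 replicate 2. Light-harvesting genes differed within day 16, with LHCB1.1 at 2160.1 and 689.6 RPKM at day 16, against 1576 and 2181 RPKM at day 10. The summed level of the list was 48530.0 and 42010.0 RPKM at day 16, against 53680.0 and 54910.0 RPKM at day 10. In these bulk apices, fewer cells of a type and less RNA per cell cannot be told apart.

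Meristem genes mostly had the opposite sign. Of 15 tested genes of shoot meristem and organ boundary none passed. Of these, 14 had a log2 fold change above 0 (13 after scaling), against 66.3% of all tested genes. In 9 both day 16 libraries lay above both of day 10, against 32.0% of all tested genes. The list median log2 fold change was 0.33 as deposited, 0.28 after median-of-ratios scaling and 0.11 after quantile normalization. Over all tested genes these medians were 0.10, 0.01 and -0.01. The summed level of all 20 genes of the list was 101.6 and 89.3 RPKM at day 16, against 70.3 and 68.4 RPKM at day 10. STM, with the values given above, had a log2 fold change of 0.87 ± 0.200 (adjusted p = 0.215). KNAT1, also a homeobox gene of the meristem, overlapped between the ages at 6.48 and 7.53 RPKM at day 16, against 6.91 and 6.20 RPKM at day 10. The part of a changed mix of mesophyll and meristem in the results above was not tested.

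The lists of abscisic acid, jasmonate and glucosinolate genes had high medians with no gene that passed. Of 21 genes of abscisic acid, cold and drought, 19 had a log2 fold change above 0 (18 after scaling), against 66.3% of all tested genes as deposited. The list median was 1.199. In 12 of the 21 both day 16 libraries lay above both of day 10, against 32.0% of all tested genes. The 2 libraries of an age were nonetheless far apart in some of the 21. RD29A, a dehydration-responsive gene, was measured at 33.4 and 172.3 RPKM at day 16, against 21.4 and 41.7 RPKM at day 10. RD20, a caleosin gene of drought, had 0.81 and 34.6 RPKM at day 16, against 0.61 and 1.40 RPKM at day 10. In both genes day 16 replicate 2 alone stood far above the rest. The median of the list was 0.33 without that library and 1.73 without day 16 replicate 1. COR15B, a chloroplast cold-protection protein, was steadier, at 100.9 and 112.0 RPKM at day 16, against 49.1 and 42.9 RPKM at day 10 (log2 fold change 1.19 ± 0.248, adjusted p = 0.159).

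All 17 tested jasmonate genes had a log2 fold change above 0 (16 after scaling), against 66.3% of all tested genes as deposited. The list median was 0.87 in wild type, with 0.26 in the knockdown line. In 11 of the 17, MYC2 among them, both day 16 libraries lay above both of day 10, against 32.0% of all tested genes. VSP1, a storage protein that jasmonate induces, had 32.5 and 14.04 RPKM at day 16, against 6.10 and 9.26 RPKM at day 10 (log2 fold change 1.39, adjusted p = 0.405). MYC2, the bHLH factor of this pathway, had 7.94 and 7.34 RPKM at day 16 and was listed at 0 in both day 10 libraries. In the knockdown line MYC2 was listed at 0 in 1 library of each age and was near 16 RPKM in the other, so its zeros do not follow age. Of 20 glucosinolate synthesis genes 19 had a log2 fold change above 0, with a median of 0.75 that was 0.23 without day 10 replicate 1 and 1.24 without day 10 replicate 2. BCAT4, the first enzyme of methionine chain elongation, had 180.7 and 82.2 RPKM at day 16, against 56.5 and 65.7 RPKM at day 10 (log2 fold change 0.99, adjusted p = 0.438).

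The 13 tested DNA replication genes all had a log2 fold change below 0, against 33.6% of all tested genes. The list median was -0.37 and no member passed. In 4 of the 13 both day 16 libraries lay below both of day 10, against 10.6% of all tested genes. PCNA1, the sliding clamp of replication, had 27.8 and 10.97 RPKM at day 16, against 21.5 and 37.8 RPKM at day 10. Day 16 replicate 2 was low and day 10 replicate 2 was high, and the median of the list was -0.12 without the day 16 library and -0.13 without the day 10 library. Without the other library of an age it was -0.63 for day 16 replicate 1 and -0.62 for day 10 replicate 1. The auxin list spread in the opposite sense over the same libraries. IAA29, an auxin-induced repressor, had 2.33 and 10.7 RPKM at day 16, against 8.88 and 2.28 RPKM at day 10, and the median of the 18 tested genes was -0.16 without day 16 replicate 2 and 0.89 without day 16 replicate 1. It was -0.01 without day 10 replicate 2 and 0.66 without day 10 replicate 1. In the 33 lists other than those named here with a passing gene, no tested member passed. PECT1 itself was level in wild type, at 40.4 and 41.3 RPKM at day 16, against 40.7 and 39.2 RPKM at day 10 (log2 fold change 0.03 ± 0.145). STM, COR15B and the other list members named here that did not pass, apart from the flowering regulators and PECT1, were picked after their values were seen.

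**Figure D3:**
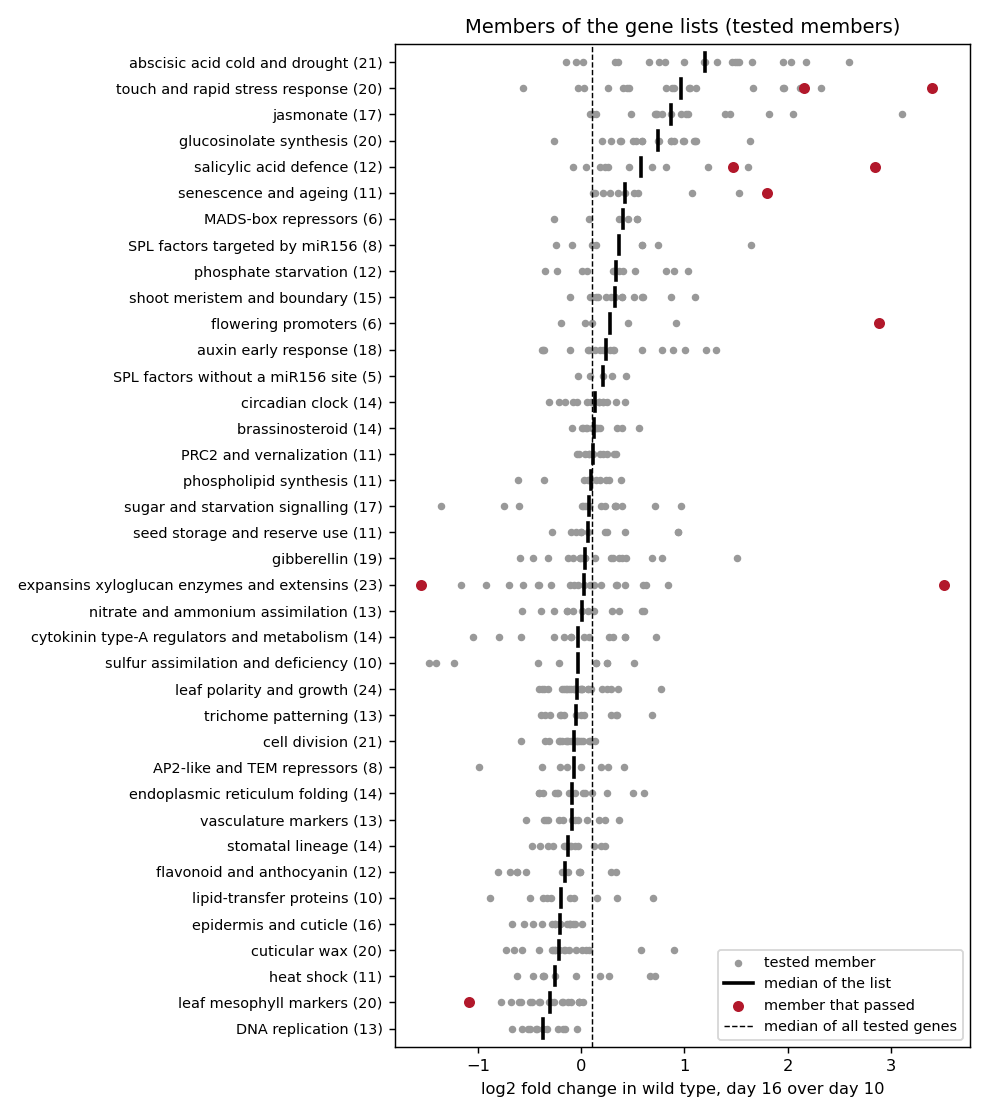
Log2 fold change in wild type, day 16 over day 10, of every tested member (points) of the gene lists with at least 5 tested members, ordered by list median (black bars), with the number tested after the name. Members that passed are red, the dashed line is the all-gene median of 0.10, and medians run between 1.199 for abscisic acid, cold and drought and -0.37 for DNA replication.

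The knockdown line gave a second age series whose libraries had no part in the wild-type fold changes. They share with the wild-type test the estimate of the spread. Of the 34 genes that rose in wild type, 33 had both knockdown libraries of day 16 above both of day 10, against 15.9% of all tested genes. All 5 that fell had both below, against 17.9% of all tested genes. With day 16 replicate 2 of the knockdown line alone, the counts were again 33 and 5, against 50.8% and 24.6% of all tested genes. The median log2 fold change of the 34 was 1.80 in wild type, against 1.497 in the knockdown line, and 26 of the 34 had at least 0.5 of the wild-type log2 fold change in the knockdown line.

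The changes of the genes passing every alternative were close in the 2 genotypes. EXT4 had a log2 fold change of 3.52 in wild type, against 3.01 in the knockdown line. DR4 had 3.13 in wild type, against 3.14 in the knockdown line, and AGL24 had 2.89, against 2.78 in the knockdown line. AAP2 had 1.98 in wild type, against 2.19 in the knockdown line. XTH7 had -1.55 in wild type, against -1.52 in the knockdown line.

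The gene that did not follow was AT3G22235, at 2.16 and 0.48 RPKM at day 16, against 0.86 and 2.52 RPKM at day 10 in the knockdown line. PCC1 was also low there, at 1.76 and 1.28 RPKM at day 16, against 0.00 and 0.82 RPKM at day 10. Its day 16 libraries still lay above those of day 10 (log2 fold change 0.89). AT2G25510 had 6.30 and 6.38 RPKM at day 16 in the knockdown line, against 6.19 and 5.09 RPKM at day 10. The difference between genotypes in the change with age, wild type minus knockdown, was 3.08 ± 0.529 on the log2 scale for AT3G22235 (unadjusted p = 0.00018) and 1.96 ± 0.466 for PCC1 (unadjusted p = 0.00189). AT2G25510 differed by 1.25 (unadjusted p = 0.00258) and AT5G01870 by 0.92 (unadjusted p = 0.00227). None held after adjustment. PCC1 and AT3G22235 were near the floor in the knockdown line, where the log2(RPKM + 1) scale understates a change. Their differences between genotypes may therefore be overstated, and a lower level at both ages is not the same as a lost change with age. Over all genes the limma test of this difference called 0 of 17467 (0%), with 288 at an unadjusted p under 0.05 and a smallest adjusted p of 1.00, and voom called 0 as well.

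**Figure D4:**
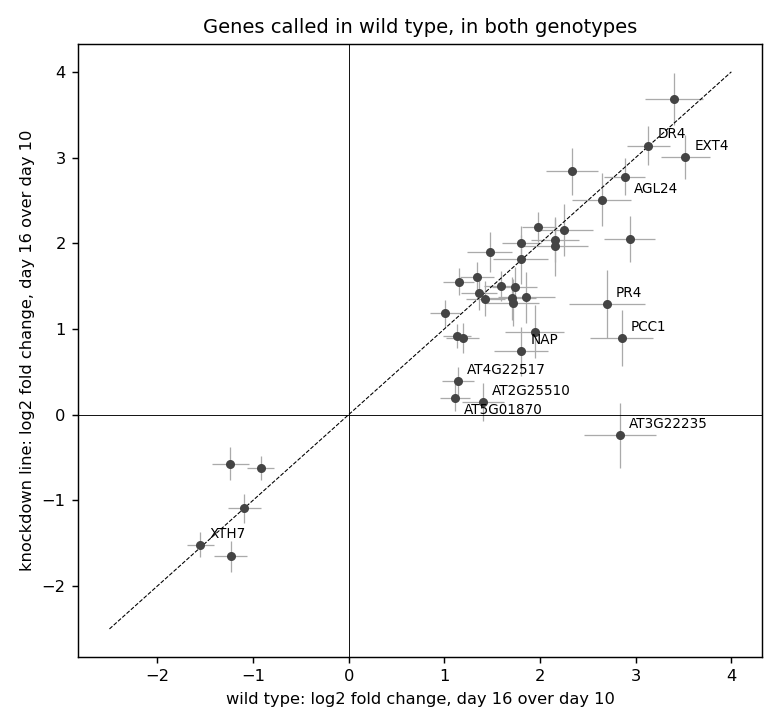
Log2 fold change, day 16 over day 10, of the 39 genes called in wild type, with wild type on the x axis and the knockdown line on the y axis, both on the log2(RPKM + 1) scale. Bars are standard errors and the dashed line marks equal change, with 38 of 39 genes on the same side of 0 in both genotypes and AT3G22235 the exception at -0.24 in the knockdown line.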

How the data were processed

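RNA was measured by mRNA sequencing in 8 libraries of shoot apices; per the labels' protocols, total RNA was extracted with Trizol and libraries were made with a directional kit. The authors deposited RPKM values per locus, per the file headers; their file carries the name RPM, but low values are steps of 1 read over exon length, so limits planned per M reads were applied to RPKM. Per the submitters' processing notes, reads were placed on TAIR10; no source used here names the aligner, the counter or its strand treatment. The depth is an estimate from those steps (73.1% to 81.7% of low values lay within 0.1 read of a whole number). The original read counts were not recovered. Reads estimated from this depth served for the nuclear shares, the chi-square and the voom setting, and no interval by counting is given. The authors' 4 tables of changed genes compare genotypes and were not used.

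Groups came from the titles. Log2(RPKM + 1) was fitted in limma 3.58.1 under R 4.3.3, with a trend of the prior spread on level and 1 coefficient per group over all 8 libraries (4 residual and 5.8 prior degrees of freedom), with Benjamini-Hochberg adjustment over 17467 genes. Fold changes on this scale understate low genes. The fit was tested on simulated data. Symbols and positions came from RefSeq TAIR10.1, which matched 27445 of 27655 loci; the other 210 are organelle loci. Gene lists held 676 entries in 41 lists, of which 651 matched, and 1 list, of microRNA host genes, had no member in the table. Members, lists and tests were chosen with earlier results of these data known.

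Named genes were the 15 largest rises and falls among passing genes whose libraries did not overlap and whose higher age averaged 5 RPKM or more, up to 6 passing members per list, and a fixed set of flowering regulators with PECT1. Alternatives changed scaling, pseudocount, filter, prior, samples, test and replicate block.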

Additional observations from a re-analysis of the deposited data

How the results depend on the processing

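In wild type, 39 genes passed, 34 higher and 5 lower at day 16. Counts given as total, higher and lower were 18, 15 and 3 after median-of-ratios scaling, 12, 10 and 2 with no filter, 9, 8 and 1 in the wild-type libraries alone, 16, 15 and 1 with no intensity trend, and 14, 13 and 1 with voom on estimated reads. With a pseudocount of 0.1 the lower genes numbered 3. Leaving out 1 library in turn gave 7 to 54 genes, 6 to 47 higher and 1 to 7 lower. The labels do not say that replicate numbers pair the samples, and same-numbered libraries of the wild-type ages deviated apart (r = -0.24). A replicate block gave 89 genes, 72 higher and 17 lower, including all 39, and a crossed replicate block, chosen after seeing the data and fitted to the wild-type libraries, gave 63, with 51 higher and 12 lower, of which 32 were among the 39. The test of the difference between genotypes called 0 genes in each of its alternatives.

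Among the 49 genes followed singly through the settings, the sign reversed in 4, none of which passed in any setting. Members of the gene lists that are not among the 49 were followed only under scaling, where more signs turned, such as in the sugar signalling list, with 8 of 17 above 0 after median-of-ratios scaling, against 14 as deposited. The SPL4 log2 fold change was -0.017 with quantile normalization and -0.0853 to 0.377 with 1 library left out, the lowest without day 16 replicate 2. The SPL9 log2 fold change was -0.0595 with quantile normalization and -0.0517 to 0.262 with 1 library left out, below 0 without day 10 replicate 1 or day 16 replicate 2. The FD log2 fold change was -0.0394 after median-of-ratios scaling, -0.125 with quantile normalization and -0.116 to 0.187 with 1 library left out, below 0 without day 10 replicate 1 or day 16 replicate 1. The PECT1 log2 fold change was -0.0813 after median-of-ratios scaling and -0.0338 with quantile normalization. The cause was not tested. With 2 libraries an age, the median standard error of a log2 fold change was 0.239, which limits the size of change that could pass.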

Other observations

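Some genes that did not pass split the replicates within each age in a crossed way, and they were picked after their values were seen. SEN1, a dark-inducible gene, had 14.1 and 52.3 RPKM at day 16, against 39.9 and 11.1 RPKM at day 10. SAG21, a late-embryogenesis-type stress gene, had 39.4 and 174.1 RPKM at day 16, against 101.0 and 37.6 RPKM at day 10. EXPA1, an expansin, had 86.2 and 115.8 RPKM at day 16, against 104.5 and 52.7 RPKM at day 10. In these genes day 16 replicate 2 and day 10 replicate 1 were the higher libraries of their age. MCM2, a replication helicase subunit, had the opposite pattern, with 9.14 and 4.39 RPKM at day 16, against 7.08 and 14.01 RPKM at day 10.

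No tested phosphate starvation gene passed. Of 12 tested, 10 had a log2 fold change above 0 (8 after scaling), against 66.3% of all tested genes as deposited. The list median was 0.34 in wild type, with 0.57 in the knockdown line. GDPD1, a phosphodiesterase of lipid turnover, had 16.5 and 15.4 RPKM at day 16, against 9.14 and 7.13 RPKM at day 10 (log2 fold change 0.90 ± 0.201, adjusted p = 0.194). PHO2, the ubiquitin-conjugating enzyme that limits phosphate uptake, had 22.1 and 18.24 RPKM at day 16, against 9.83 and 12.3 RPKM at day 10 (log2 fold change 0.82, adjusted p = 0.326). Cuticular wax genes leaned lower, with 15 of 20 log2 fold changes below 0, against 33.6% of all tested genes. The list median was -0.21 and none of the 20 passed. Epidermis and cuticle markers, a list that shares LACS1 and KCS10 with the wax list, had the same lean. Of its 16 tested log2 fold changes 15 were below 0 (16 after scaling), against 33.6% of all tested genes as deposited. The median was -0.21 and none passed. The summed level of the 17 epidermis and cuticle genes was 1518 and 1300.0 RPKM at day 16, against 1659 and 1710.0 RPKM at day 10, and its part in the wax values was not tested. KCS20, a fatty acid elongase, had 56.0 and 45.8 RPKM at day 16, against 78.0 and 92.5 RPKM at day 10 (log2 fold change -0.73 ± 0.170, adjusted p = 0.221).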
